A study of Mus musculus with 6 samples.

Results

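Hepatic lipoprotein production was followed across diets through 10 genes, the apolipoprotein genes Apoa1, Apoa2, Apoa4, Apoa5, Apob, Apoc1, Apoc3, Apoe and Apom and the lipid transfer gene Mttp. They were chosen by name, with earlier results of these data known, and all 10 were measured among 19938 genes, each on 1 probe set annotated to that gene alone. The samples were livers of male C57BL/6 mice, aged 6 weeks on arrival and kept on chow for 1 week before the diets. In the cholesterol group (3 arrays, CH1 to CH3) the chow held 1% cholesterol. In the other group (3 arrays, LE1 to LE3) each 100 g of chow held 100 mg of lovastatin, which inhibits cholesterol synthesis, and 21 mg of ezetimibe, which inhibits intestinal cholesterol uptake. The length of feeding is not given in the sources used here, a chow group named in the labels is not analysed here, and arrays are called biological replicates without being tied to animals.

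Apolipoproteins are the protein shell of plasma lipoproteins. In the hepatocyte the microsomal triglyceride transfer protein, encoded by Mttp, loads lipid onto apolipoprotein B as it enters the endoplasmic reticulum, and the particle leaves the cell as very low density lipoprotein (VLDL). The smaller apolipoproteins exchange between particles: apolipoproteins A-I and A-II build high density lipoprotein (HDL), A-V favours and C-III hinders triglyceride clearance, and E is a ligand of the receptors that remove remnants. Apolipoprotein A-IV, made in intestine and in mouse liver, is carried on triglyceride-rich particles and HDL.

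Of the 10 genes, Apoa4 and Apoa5 rose with lovastatin and ezetimibe, Apoc1 fell, and 7 did not pass the test. Apoa4 changed the most, by 2.72-fold, while the other 9 lay between log2 differences of -0.30 and 0.25. Differences are those between diet means of log2(intensity + 1), lovastatin and ezetimibe minus cholesterol, n = 3 arrays per diet, tested with limma and adjusted over all 19938 genes at a threshold of 0.05. By this rule 2410 genes (12.1%) passed, 1398 (7.01%) higher and 1012 (5.08%) lower. When arrays were scaled over the tested genes, the split was 1460 higher and 1598 lower after quantile normalisation and 1215 higher and 1294 lower after centring on medians. The members are bright: on each array at least 93.1% of probe sets had lower signal than any of them. Among the 1213 genes at least as bright as Apom, the dimmest member, 357 (29.4%) passed, so that 3 of 10 members is close to the share among bright genes. The diets did not overlap for 8 of the 10 members, 6 higher and 2 lower, beside 30.6% of all genes and 65.5% of those 1213. The median difference of the members was 0.10, beside -0.005 over all genes. Because no label ties an array to its own animal, the spread behind each p-value may be partly technical.

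**Figure D1:**
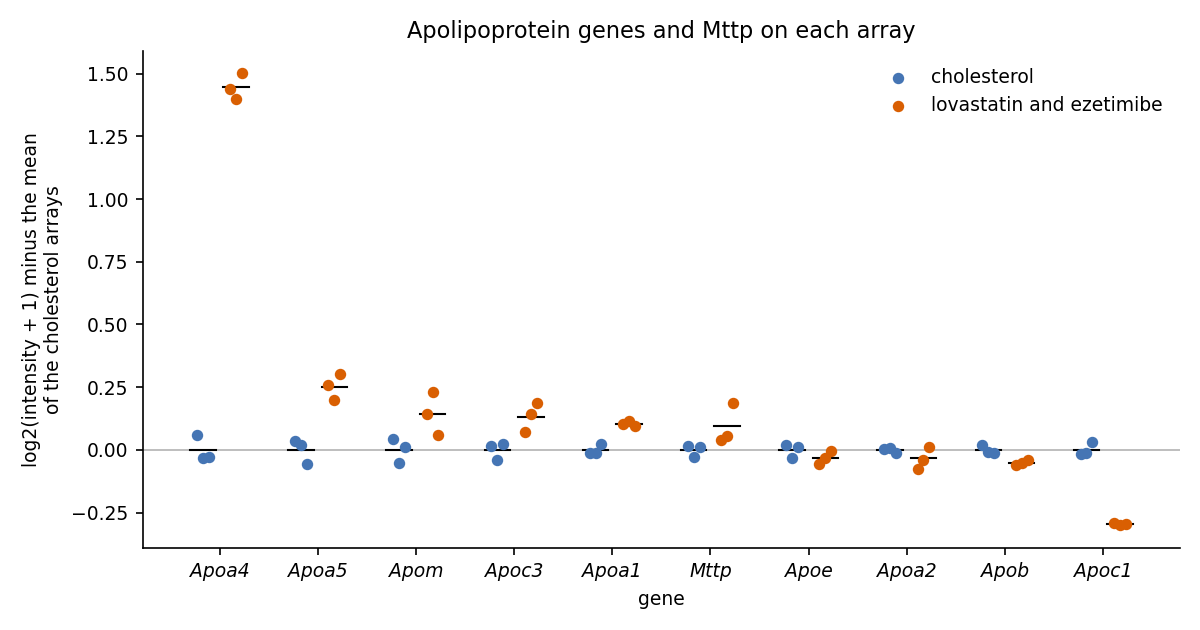
Values of the 10 genes on each of the 6 arrays, as log2(intensity + 1) minus the mean of the 3 cholesterol arrays; points are arrays and short lines are diet means. The lovastatin and ezetimibe arrays stand well above the cholesterol arrays for Apoa4, and below them for Apoc1, and the diets overlap for Apoe and Apoa2.

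Apoa4 had intensities of 2742, 2573 and 2583 on the cholesterol arrays and of 7126, 6934 and 7450 on the lovastatin and ezetimibe arrays. Every value of the second diet exceeded every value of the first by more than the whole spread within either diet. The mean log2 level went from 11.36 (SD 0.05, n = 3) to 12.81 (SD 0.05, n = 3), a difference of 1.45 (SE 0.05, 95% interval 1.32 to 1.57, adjusted p = 2.06e-06). Its rise ranked 68th among the 19938 genes. It passed under each of the 17 alternative settings, with log2 differences of 1.41 to 1.47 and adjusted p from 2.15e-19 to 2.46e-04. Bulk liver RNA does not tell more cells of a type from more RNA per cell. Apoa4 is also a gene of enterocytes, and of 11 enterocyte markers 0 rose and 1 fell, Fabp2, a fatty acid binding protein, named after its values were seen, which fell by 1.38 on the log2 scale. The summed signal of the 11 was 6742 to 6870 on the cholesterol arrays and 5669 to 5866 on the others. Without Fabp2 the direction turned, to 4486 to 4654 with cholesterol and 4811 to 4986 with lovastatin and ezetimibe. Most of that sum was Anpep, an aminopeptidase, with 3656, 3509 and 3542 against 3925, 3845 and 3992 (log2 0.14, adjusted p = 0.122). Without Fabp2 and Anpep the sums of the remaining 9 markers overlapped, at 943 to 1078 and 966 to 1048. Most of these 9 lay below the median signal of their array (158 to 163), where an overlap may not show a change. With quantile normalisation, the intensity trend or the cyberT-like test 1 enterocyte marker was higher, and the part of enterocyte RNA in the value of Apoa4 was not tested.

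Apoa5, whose product promotes lipolysis of triglyceride-rich particles, had intensities of 6196, 6133 and 5811 with cholesterol and of 7236, 6929 and 7447 with lovastatin and ezetimibe. The diets did not overlap, but the gap between the nearest arrays was smaller than for Apoa4. The change was 1.19-fold (log2 0.25, SE 0.05, 95% interval 0.13 to 0.38, adjusted p = 0.020). Its direction held in all 17 settings, and 6 of them ended the call: the replicate block (adjusted p = 0.065) and leaving out CH1, CH2, CH3, LE1 or LE3 (0.0505 to 0.0727). The adjusted p over all settings ran from 4.14e-06 to 0.0727.

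Apoa1, Apoc3, Apoa4 and Apoa5 lie side by side on chromosome 9. Apoa1, the main HDL protein, had intensities of 20407, 20385 and 20904 with cholesterol and of 22071, 22249 and 21962 with lovastatin and ezetimibe. Its diets did not overlap, and the difference of 0.10 (SE 0.05, 95% interval -0.0016 to 0.21) did not pass (adjusted p = 0.209). For Apoc3, an inhibitor of triglyceride clearance, the intensities were 14618, 14071 and 14701 against 15196, 15950 and 16451. These did not overlap either, and the difference of 0.13 (SE 0.05, 95% interval 0.01 to 0.25) missed the threshold (adjusted p = 0.164). Thus all 4 neighbours had their higher values with lovastatin and ezetimibe, but by unequal amounts. Within each array, the log2 value of Apoa4 minus that of Apoa1 averaged -2.97 (SD 0.06, n = 3) with cholesterol and -1.62 (SD 0.06, n = 3) with lovastatin and ezetimibe, a shift of 1.34. The shift was 1.31 for Apoa4 against Apoc3, 1.19 for Apoa4 against Apoa5 and 0.15 for Apoa5 against Apoa1. Each of these, and the shift of Apoc1 against Apoe given further on, had an exact two-sided permutation p of 0.1, the smallest that 3 arrays against 3 allow, and 0.1 after adjustment over the 5 pairs, so that none could pass 0.05.

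The 250 bases before the start sites of Apoa4, Apoa5 and Apoa1 are shown because the measured differences of these neighbours were unequal. That of Apoa1 did not pass. The sequences are from RefSeq (GRCm38.p6, plus strand, the bases after the start left out). Their source held 8 of the 10 members, without Apoc1 and Apoc3. Windows of the 3 genes lie at chr9:46240594-46240843, chr9:46268358-46268607 and chr9:46228380-46228629. Capitals mark the letters TATAAA, the core of a TATA box.

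Apoa4: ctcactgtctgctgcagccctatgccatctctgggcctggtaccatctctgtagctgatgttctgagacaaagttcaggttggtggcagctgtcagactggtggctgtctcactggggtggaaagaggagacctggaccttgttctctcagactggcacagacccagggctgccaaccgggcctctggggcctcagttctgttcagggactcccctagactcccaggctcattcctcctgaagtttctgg

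Apoa5: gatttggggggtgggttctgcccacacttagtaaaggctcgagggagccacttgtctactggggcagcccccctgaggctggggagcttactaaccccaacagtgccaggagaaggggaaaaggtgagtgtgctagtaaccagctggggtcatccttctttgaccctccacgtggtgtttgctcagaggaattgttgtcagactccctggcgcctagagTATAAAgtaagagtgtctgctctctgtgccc

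Apoa1: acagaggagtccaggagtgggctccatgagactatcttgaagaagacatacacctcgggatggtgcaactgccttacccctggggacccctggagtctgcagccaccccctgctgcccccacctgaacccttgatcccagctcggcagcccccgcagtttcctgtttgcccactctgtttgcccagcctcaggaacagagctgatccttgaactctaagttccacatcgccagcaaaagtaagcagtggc

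The window of Apoa5 held TATAAA from 31 to 26 bases before this start (a second listed start lies 56 to 51 bases after the same letters), while those of Apoa4 and Apoa1 did not hold these letters on either strand; 12.4% of 32851 such windows did. None of the members' windows held the HNF4-type letters CAAAGGTCA (0.426% of all windows) or CAAAGTCCA (0.384%), the sterol element letters TCACNCCAC (1.05%) or the cyclic AMP element letters TGACGTCA (1.55%) on either strand. The nuclear receptor half-site AGGTCA, which the first of these overlaps, was in 4607 of the 32851 windows and in 1 of the 12 windows of the members, at 1 of the 2 starts of Apoa2. The letters AGGTCA and TATAAA were added after the others gave no match. These are descriptions of letters in these windows. Variants of the letters were not searched. Letters this rare would seldom be met in 12 windows, so their absence does not show a lack of such sites.

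**Figure D2:**
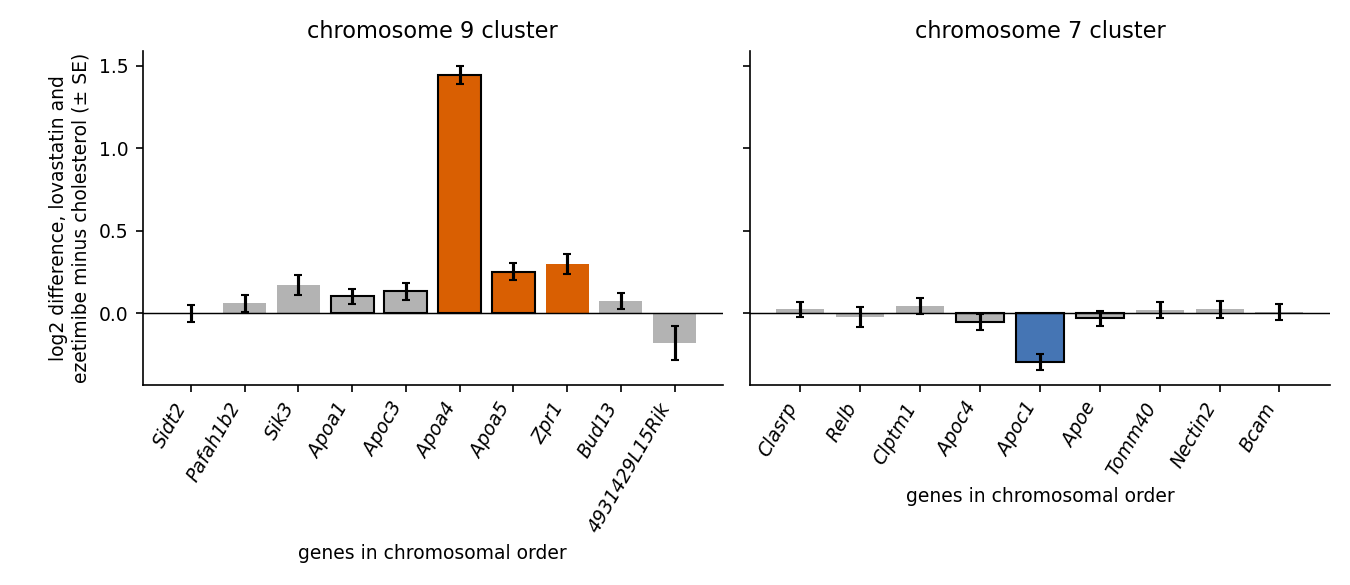
Log2 difference with its SE for the measured genes of both apolipoprotein clusters (black outline), in chromosomal order. The 3 nearest measured protein-coding genes on each side are also shown. Orange passed higher, blue passed lower, grey did not pass. Apoa4 stands at 1.45 among neighbours between -0.18 and 0.30, and Apoc1 at -0.30 beside Apoe at -0.03.

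The other cluster, on chromosome 7, holds Apoc1 and Apoe beside Apoc4 and Apoc2, of which Apoc2 is not analysed here. Apoc1, a small apolipoprotein that slows the uptake and remodelling of lipoproteins, had intensities of 16827, 16869 and 17408 with cholesterol and of 13905, 13832 and 13873 with lovastatin and ezetimibe. The second diet lay below the first on every array and its values were almost equal. Apoc1 was 1.23-fold lower (log2 -0.30, SE 0.05, 95% interval -0.40 to -0.19, adjusted p = 0.0049), and it passed in all 17 alternative settings (adjusted p 7.79e-09 to 0.0266). Apoe, the receptor ligand, had 24429, 23589 and 24294 against 23187, 23552 and 24033. The diets overlapped, and the interval of the difference, -0.14 to 0.08, corresponds to 0.907-fold to 1.06-fold (adjusted p = 0.758). Within arrays Apoc1 minus Apoe averaged -0.50 (SD 0.03, n = 3) with cholesterol and -0.77 (SD 0.03, n = 3) with lovastatin and ezetimibe, a shift of -0.27. Apoc4, of the same cluster, differed by -0.05 (SE 0.05, adjusted p = 0.588), and the 6 flanking genes by -0.02 to 0.04, none past the threshold. Macrophages also make Apoe and Apoc1, and 13 of 14 Kupffer cell and macrophage markers rose. Their summed signal was 11545 to 12272 with cholesterol and 15119 to 15497 with lovastatin and ezetimibe, and its part in the values of Apoe and Apoc1 was not tested.

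Apob and Mttp, which assemble the particle itself, did not pass. Apob had intensities of 14657, 14398 and 14343 against 13857, 13948 and 14070. Its values with lovastatin and ezetimibe were all the lower ones, by a difference of -0.05 (SE 0.05, 95% interval -0.16 to 0.05, adjusted p = 0.554). Mttp had 4542, 4401 and 4524 against 4611, 4671 and 5117, with LE3 above the other arrays. The difference was 0.09 (SE 0.06, 95% interval -0.04 to 0.23, adjusted p = 0.363), and 0.05 without LE3. A fold of 0.897 to 1.04 for Apob and of 0.975 to 1.17 for Mttp lay within these intervals.

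Apoa2, the second HDL protein, had intensities of 22033, 22108 and 21773 against 20848, 21376 and 22170, which overlapped (log2 -0.03, SE 0.05, 95% interval -0.15 to 0.08, adjusted p = 0.739). Apom, a carrier of sphingosine-1-phosphate on HDL, had 2247, 2102 and 2198 against 2412, 2558 and 2276. The diets were close to overlapping, and the difference of 0.14 (SE 0.06, 95% interval 0.01 to 0.28) did not pass (adjusted p = 0.185).

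**Figure D3:**
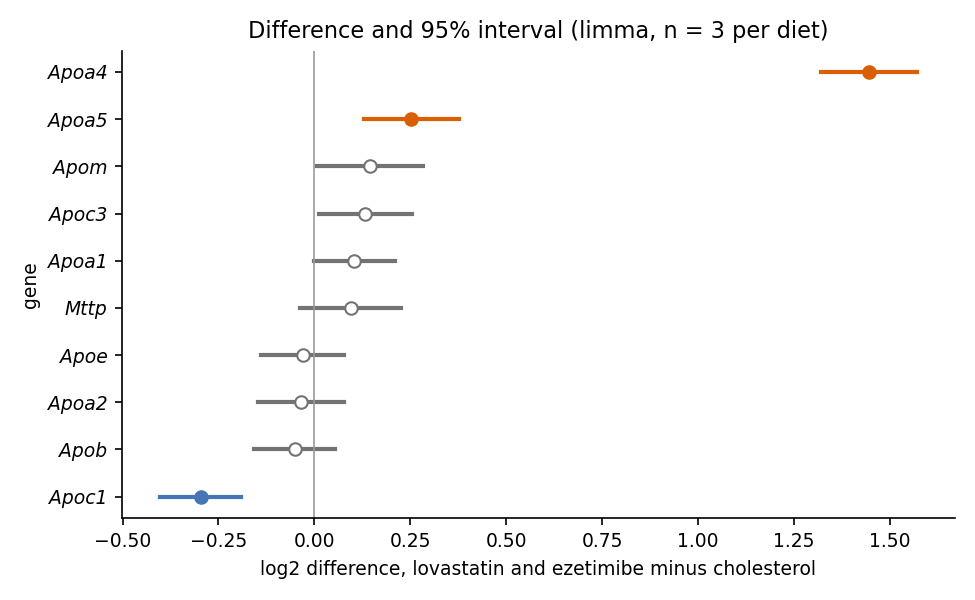
Log2 difference of each gene between diets with its 95% interval from limma, n = 3 arrays per diet; filled points passed the threshold (orange higher, blue lower) and open grey points did not. Only the intervals of Apoa4, Apoa5, Apoc1, Apoc3 and Apom lie clear of 0, the last 2 by 0.01.

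The calls on the bright members depended on the variance assumed. The residual SD within diets had a median of 0.039 among the 1213 bright genes and of 0.081 over all genes, and that of the members had a median of 0.040. With a prior that follows intensity and is robust to outlying genes, 3521 genes (17.7%) passed and 6 of the 10 members did: Apoa1 (adjusted p = 0.0021), Apoc3 (0.00331) and Apom (0.029) joined Apoa4, Apoa5 and Apoc1. A test in the manner of cyberT, the program that the series design names, called the same 6 members, these 3 at 0.00485, 0.00237 and 0.0216. Apoc3 also passed after quantile normalisation over the tested genes (0.0446). Apoa2, Apob, Apoe and Mttp did not pass in any setting tried. The brightest members, Apoe, Apoa2 and Apoa1, reached 76.8%, 70.8% and 70.5% of the highest intensity on an array, and whether signal is compressed near this limit was not tested. Intensities of different probe sets are not compared as transcript levels.

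**Figure D4:**
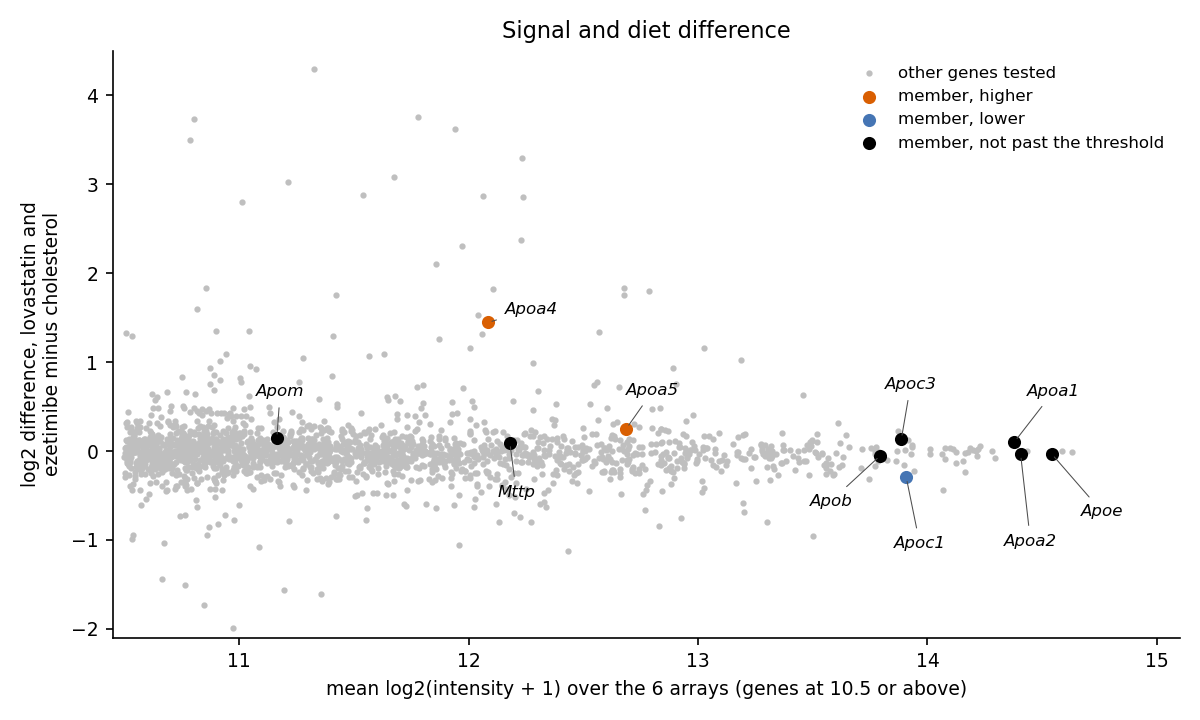
Log2 difference between diets against mean log2(intensity + 1) over the 6 arrays, for the brighter part of the tested genes; the 10 genes are coloured and labelled. Apoa4 lies at 1.45 among genes of middle to high signal, while the 45 genes at least as bright as Apob lie between -0.44 and 0.22.

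Of the genes outside the 10, those whose centred values over the 6 arrays were nearest to Apoa4 were 9030619P08Rik, the fatty acid elongase Elovl6 and the glycogen phosphorylase Pygb, with root mean square differences of 0.036, 0.044 and 0.056 on the log2 scale. Their own log2 differences were 1.47, 1.53 and 1.42. Nearest to Apoa5 were Elmo1, H2-Eb1, an antigen-presenting molecule, and Plin2, a coat protein of lipid droplets, at 0.0088, 0.019 and 0.022. Nearest to Apoc1 were F11, a clotting factor, Mief2 and Vwa8, at 0.0125, 0.0136 and 0.0137. Likeness over 6 arrays of 2 diets mostly reflects the size of the diet difference.

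The 7 lists of other lipoprotein genes, 98 measured genes in all, held 27 past the threshold, 11 higher and 16 lower. Beside these, and beside each list below, stand 12.1% of all genes (7.01% higher, 5.08% lower) and 29.4% of bright genes. Many of the 98 are dimmer than Apom. With CH1, CH3, LE1 or LE2 left out the lower calls numbered 7, 9, 9 and 9. Among 11 other apolipoprotein genes 0 passed with limma and 3 had an unadjusted p under 0.05. Beside this and the like counts below, 4941 of all 19938 genes had one, as did 564 of the 1213 bright genes. With the intensity trend or the cyberT-like test 3 of the 11 were higher and 1 was lower. Clu, which encodes apolipoprotein J, came nearest, with intensities of 8166, 7867 and 8002 against 6727, 6895 and 7447 (log2 -0.19, SE 0.06, adjusted p = 0.068). Its adjusted p ran from 2.02e-04 to 0.204 over the settings, and it was past the threshold in 8 of 17.

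Genes of VLDL assembly and export were higher in 4 of 25 cases and lower in 0, beside 7.01% and 5.08% of all genes. Their median was 0.045, beside -0.005 over all genes. Tmem41b, a scramblase of the endoplasmic reticulum that takes part in lipoprotein secretion, had intensities of 1467, 1327 and 1545 against 2280, 2550 and 2465, a 1.68-fold rise (log2 0.75, SE 0.07, adjusted p = 4.49e-04). Tm6sf2, which promotes the lipidation of VLDL, went from 2058, 2162 and 2208 to 2823, 2693 and 2926, a 1.31-fold rise (log2 0.39, SE 0.06, adjusted p = 0.0031). Both sets of values stood clear of each other. Tmem41b had 2 probe sets, of which the brighter was used, and its log2 difference ran from 0.61 to 0.80 over the settings. Plin2 rose by 0.26 (SE 0.05, adjusted p = 0.010) and Svip, an inhibitor of protein degradation at the endoplasmic reticulum, by 0.23 (SE 0.06, adjusted p = 0.041), a call that 8 settings ended, among them leaving out CH1, CH3, LE1, LE2 or LE3 (0.0918 to 0.122). With quantile normalisation over the tested genes, the intensity trend or the cyberT-like test 2 genes of the list were lower.

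In the editing of apolipoprotein B mRNA, which shortens the protein and occurs in mouse liver, 0 of 5 genes passed with limma and 2 had an unadjusted p under 0.05. The deaminase Apobec1 was nearest, with 990, 968 and 1033 against 1161, 1099 and 1159 (log2 0.19, SE 0.05, adjusted p = 0.052, and 0.00145 to 0.159 over the settings). It passed in 7 of the 17. With the intensity trend or the cyberT-like test 2 genes of the list were higher and 1 lower. With quantile normalisation over all probe sets, or without the dimmest genes, 2 were higher and 0 lower.

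HDL formation and remodelling went both ways, with 2 of 13 higher and 3 lower and a median of 0.055. Pltp, which moves phospholipid between lipoproteins, had intensities of 794, 750.5 and 799 against 5449, 5378 and 5522 (6.97-fold, log2 2.80, SE 0.05, adjusted p = 4.89e-08). Lipg, the endothelial lipase that acts on HDL, had 209, 222 and 214 against 493, 580 and 563 (2.52-fold, log2 1.33, SE 0.07, adjusted p = 1.51e-05). The ratio of Pltp exceeded that of Apoa4, and the ratio of Lipg was just under it. With the intensity trend or the cyberT-like test 4 genes were higher and 4 lower. Saa4, an apolipoprotein of HDL, fell by 0.45 (SE 0.06) and Abca1, which loads lipid onto apolipoprotein A-I, by 0.28 (SE 0.05).

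Plasma lipolysis and its regulators were lower in 6 of 9 cases, higher in 0, with a median of -0.19. The 6 became 3 with the replicate block and without CH1, CH3, LE1 or LE2. Lpl, the lipase of triglyceride-rich particles, had intensities of 1068, 993 and 974 against 399, 427 and 430 (2.41-fold lower, log2 -1.27, SE 0.06, adjusted p = 7.34e-06). Angptl8, which regulates that lipase, had 2114, 2072 and 2076 against 1041, 998 and 1119 (1.98-fold lower, log2 -0.99, SE 0.06, adjusted p = 2.52e-05). Gpr146, a receptor that promotes VLDL secretion, fell by 0.44 (SE 0.05). It was placed in this list and not in that of VLDL assembly and export. Creb3l3, a liver transcription factor known to act on Apoa4 and Apoa5, fell by 0.24 (SE 0.05, adjusted p = 0.019), a call ended by the replicate block (0.0508) and without CH1, CH3, LE1 or LE2 (0.0576 to 0.0855).

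Lipoprotein receptors held 2 genes of 11 higher and 0 lower, with a median of -0.013. Lsr, a receptor for triglyceride-rich particles, had 1781, 1794 and 1738 against 2320, 2338 and 2310 (log2 0.39, SE 0.05, adjusted p = 0.0012), and Lrpap1, a chaperone of these receptors, rose by 0.34 (SE 0.05). After quantile normalisation over all probe sets or over tested genes, with the intensity trend or with the cyberT-like test 3 were lower.

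Of 24 regulators of apolipoprotein transcription, 3 were higher and 7 lower, with a median of -0.066; the 7 became 2 without CH1, 3 without CH3, and 4 without LE1 or LE2 or with the replicate block. With the intensity trend or the cyberT-like test 6 were higher and 10 lower. Hnf4a, a main activator of apolipoprotein genes, had 7226, 7268 and 7238 against 7916, 7650 and 7828 (log2 0.11, SE 0.05, adjusted p = 0.20). Srebf2, the regulator of sterol synthesis, had 652, 648 and 650.4 against 2198, 2118 and 2335 (3.40-fold, log2 1.77, SE 0.05), and the coactivator Ppargc1a 417, 392 and 426 against 754, 788 and 877 (1.95-fold, log2 0.97, SE 0.07). Srebf1, the regulator of fatty acid synthesis, was 2.71-fold lower (log2 -1.44, SE 0.05) and the coactivator Ppargc1b 1.51-fold lower (log2 -0.59, SE 0.05). Hnf4a was named after its values were seen.

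**Figure D5:**
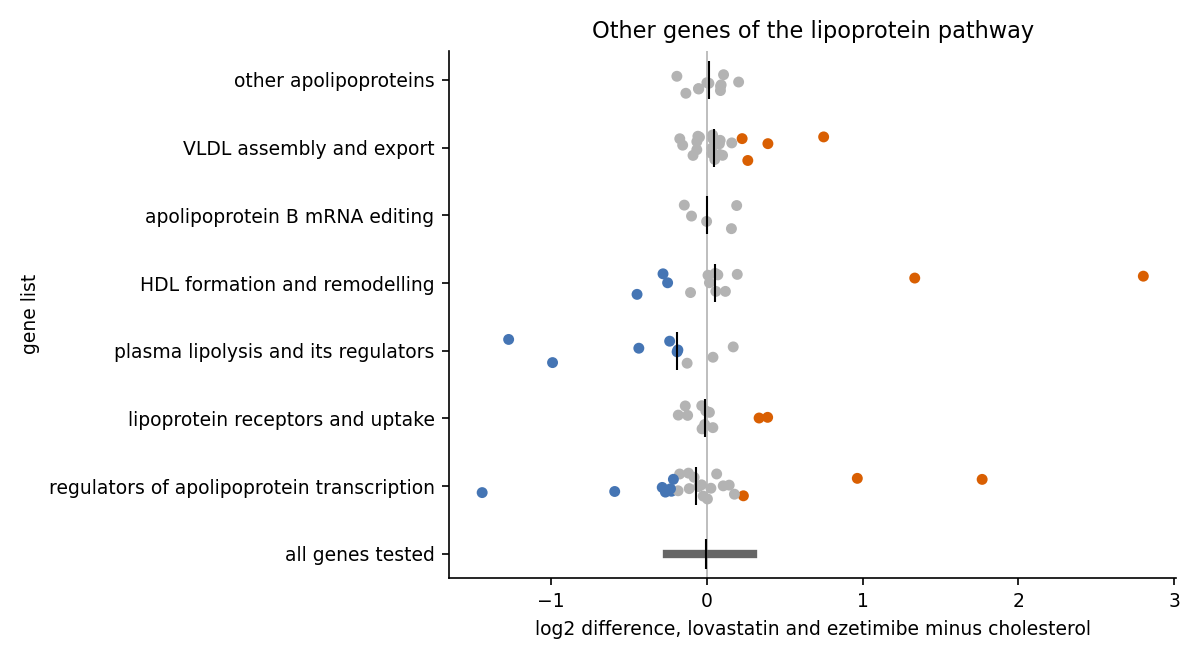
Log2 difference of each measured gene in the 7 lists (points, orange higher, blue lower, grey not past the threshold) with the list median as a black tick; the bar below spans the 5th to 95th percentile of all genes tested, with its median. Most points of the assembly, editing and receptor lists lie near 0, while Pltp at 2.80 and Srebf1 at -1.44 are the extremes.

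Among cell type markers, of 9 hepatocyte markers 0 passed with limma (1 had an unadjusted p under 0.05), with summed signals of 162060 to 163253 and 159559 to 163623. Sinusoidal endothelial markers passed in 0 of 8 cases (4 had an unadjusted p under 0.05), and their sums were 8886 to 9127 and 8271 to 8726. With the intensity trend, the cyberT-like test or quantile normalisation over tested genes 3 of these 8 were lower, and with quantile normalisation over all probe sets 2. Stellate cell markers were lower in 1 of 8 cases, and in 0 with any 1 of the 6 arrays left out. For cholangiocytes 0 of 4, for adipocytes 0 of 5 and for pancreatic acinar cells 0 of 5 passed, with 0, 1 and 0 at an unadjusted p under 0.05. With the intensity trend or the cyberT-like test 1 hepatocyte marker was higher and 1 lower. Without LE3 or without the dimmest genes 1 adipocyte marker was higher. Over all genes 12.1% passed with limma, and 4941 of 19938 had an unadjusted p under 0.05.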

How the data were processed

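Liver RNA was extracted with Trizol and hybridised to Affymetrix mouse gene arrays, per the labels and series design. What the authors deposited is a linear intensity per probe set; how background and arrays were adjusted is not given in the sources used here. Of 35556 probe sets, 21789 carried 1 gene symbol, 1621 several and 12146 none in the platform annotation. Per gene the probe set with the highest mean was used. Values were tested as log2(intensity + 1), where the pseudocount of 1 understates changes of dim genes, with limma 3.58.1 in R 4.3.3 (two-sided, Benjamini-Hochberg over 19938 genes). At most 28 values were identical between any 2 arrays. The fits were tested on simulated data. The number of arrays limits the precision.

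The members and lists were chosen with earlier results of these data known. Named genes are the 10 members, in each list up to 4 genes past the threshold with the largest change (1 with the smallest p where none passed), and the 3 genes most like each called member. Of the listed pathway genes, those without a single-gene probe set are not analysed here. Alternatives were a replicate block, quantile normalisation, median centring, leaving out the dimmest genes (13292 kept), the mean of probe sets, an intensity trend with robust prior, a cyberT-like test (prior weight 10), pseudocounts of 16 and none, and each array left out; scaling over tested genes was added after seeing the data, as were the bright-gene comparison, the flanking genes and the enterocyte sums without Fabp2 and Anpep.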

Additional observations from a re-analysis of the deposited data

How the results depend on the processing

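The 10 members kept their direction in all 17 settings, except Apoe, whose difference was 0.0063 after quantile normalisation over all probe sets and nil to 4 decimals over the tested genes. Small differences moved most: Apoa2 ran from -0.01 to -0.06, Apob from -0.01 to -0.08 and Mttp from 0.05 to 0.12 over the settings, none past the threshold. Members past the threshold and higher numbered 2, against 1 with the replicate block, 5 with the intensity trend, 5 with the cyberT-like test and 1 to 2 when 1 array was left out. Over all genes the calls were 3746 with the cyberT-like test and 1489 to 1868 when 1 array was left out. The lower calls were 657 with the replicate block, 1560 with the intensity trend, 1678 with the cyberT-like test, 1598 after quantile normalisation over tested genes and 525 to 893 when 1 array was left out. In the pathway lists 17 genes were higher when the dimmest genes were left out, 23 under the trend prior and 23 under the cyberT-like test. There 9 were lower with the replicate block, 27 with the intensity trend, 27 with the cyberT-like test, 25 after quantile normalisation over tested genes and 7 to 16 when 1 array was left out. Leaving out an array or a group of genes changes the number of samples or genes tested. The intensity trend and the cyberT-like test change the variance assumed and leave the log2 differences as they were. For the other settings the cause was not tested.

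Replicate numbers gave no clear sign of pairing the arrays, which was not tested. Deviations of same-numbered arrays correlated across genes at -0.02, -0.10 and 0.16. Of the 3 cholesterol arrays, 2 correlated best with another number. With the replicate block 1688 genes passed, against 2410 without it. The within-array shifts kept their direction in every setting tried for them. Signal over background is not given for these probe sets, so dim genes have no stated limit of detection.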

Other observations

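Zpr1, a zinc finger protein gene and the next gene beyond Apoa5 on chromosome 9, had intensities of 1050, 1005 and 1035 with cholesterol and of 1180, 1279 and 1349 with lovastatin and ezetimibe (log2 0.30, SE 0.06, adjusted p = 0.018 with limma). It was the only one of the 12 flanking genes of both clusters past the threshold. Sik3, the kinase gene beyond Apoa1, also had separate values in the 2 diets, with a difference of 0.17 (SE 0.06) that did not pass (adjusted p = 0.113).

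Among the 45 genes at least as bright as Apob the differences between diets ran from -0.44 to 0.22, with a median absolute difference of 0.036, beside 0.084 over all genes. Apoc1 had the second lowest difference of the 45 and Apoc3 the second highest. The genes at the ends, named after their values were seen, were Gstp1, a glutathione transferase, at -0.44, and Ftl1, the ferritin light chain, at 0.22.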
